A study of Homo sapiens with 2 samples.

Results

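The ATP-binding cassette (ABC) transporter genes were examined in RNA-seq of SK-N-AS (AS), a human neuroblastoma cell line without MYCN amplification. Every symbol of families ABCA to ABCG followed by a number was taken from the symbol column of the deposited table, and 46 genes were found among the 59429 symbols of its 62573 rows. Where a symbol had several rows, the row with the highest summed value was used. The untreated AS STRAP KO cells carried a CRISPR-Cas9 knockout of STRAP, the serine-threonine kinase receptor-associated protein, and had been grown from a single sorted cell, so the knockout is 1 clone. The untreated AS WT cells were the unedited culture of the same line. Each group has 1 sample and 1 column of values, called a library here, and what belongs to the knockout, to the clone or to the library cannot be told apart.

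ABC transporters use the energy of ATP to move substrates across membranes. Some pump drugs and their conjugates out of the cell, and ABCB1 (P-glycoprotein), ABCC1 and ABCG2 are the pumps best known for making tumor cells resistant to chemotherapy, neuroblastoma among them. Others move cholesterol, phospholipids, fatty acids, heme precursors or peptides. A few do not transport at all, such as ABCC8, which forms part of a potassium channel, and ABCE1 and the ABCF proteins, which act on the ribosome.

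Levels are given in FPKM, fragments scaled to 1000 bases of transcript and to 1000000 mapped fragments. A gene was counted as expressed if it reached 1 FPKM in either library, and as lower or higher in AS STRAP KO where the plain ratio of the FPKM values reached 2-fold. These are descriptions of 1 library against 1 library, with no replicate check and no test. Low values of genes with a single transcript placed 1 FPKM at 26.7 reads per 1000 bases in AS STRAP KO and 26.3 reads in AS WT, and the reads behind a gene were estimated from these figures. The 95% intervals of the log2 ratios are exact binomial intervals on the estimated reads. They cover counting error only.

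STRAP itself had 179 FPKM in AS STRAP KO and 244 FPKM in AS WT. These are RNA levels. By immunoblot the paper found no detectable STRAP protein in the knockout cells, and its sequencing showed a gap at the guide position. Among the adrenergic markers of neuroblastoma, HAND2 had 228 and 227 FPKM, GATA3 28.2 and 35.5 FPKM and ISL1 0.734 and 2.69 FPKM in AS STRAP KO and AS WT. Among the mesenchymal markers, PRRX1 had 11.5 and 3.14 FPKM, VIM 896 and 1368 FPKM and FN1 142 and 108 FPKM in AS STRAP KO and AS WT. The leukocyte gene PTPRC and the epithelial gene CDH1 were listed at 0 in both libraries, and the leukocyte gene CD74 had 2.82 FPKM in AS STRAP KO and 6.80 FPKM in AS WT. The endothelial genes PECAM1 (0.552 and 0.132 FPKM) and CDH5 (0 and 0.0263 FPKM), the epithelial gene EPCAM (0.674 and 0.0859 FPKM) and the hepatocyte genes ALB (0.0762 and 0.310 FPKM) and APOA1 (0.153 and 0.111 FPKM) were under 1 FPKM in both.

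Of the 46 ABC genes, 26 were expressed and 20 stayed under 1 FPKM in both libraries. Among the expressed genes 4 were lower in AS STRAP KO (15.4%), namely ABCC8, ABCB1, ABCC2 and ABCA7. Of all 13527 expressed rows 10.6% were lower. ABCG2 and ABCA3 were the 2 genes that were higher in AS STRAP KO (7.69%), beside 8.31% of all expressed rows. The median log2 ratio of the 26 genes was -0.20, with 15 genes below and 11 above equal levels, and that of all expressed rows was 0.00. Most of the family lay close to equal levels, with 65.4% of the expressed ABC genes and 63.2% of all expressed rows within 1.5-fold. The 6 genes past 2-fold were mostly of low level: of the 11 ABC genes that reached 20 FPKM in either library, ABCA7 was the only one past 2-fold. Over all rows such ratios were also rarer at higher levels, with 6.51% lower and 5.72% higher among the 9857 rows from 5 FPKM. The share of all rows from 20 FPKM was not computed. ABCC2 and ABCC8 reached 1 FPKM in AS WT alone, and ABCG2 and the ABCC1 row used here in AS STRAP KO alone. A second ABCC1 row had 0.949 FPKM in AS STRAP KO and 0.996 FPKM in AS WT.

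**Figure D1:**
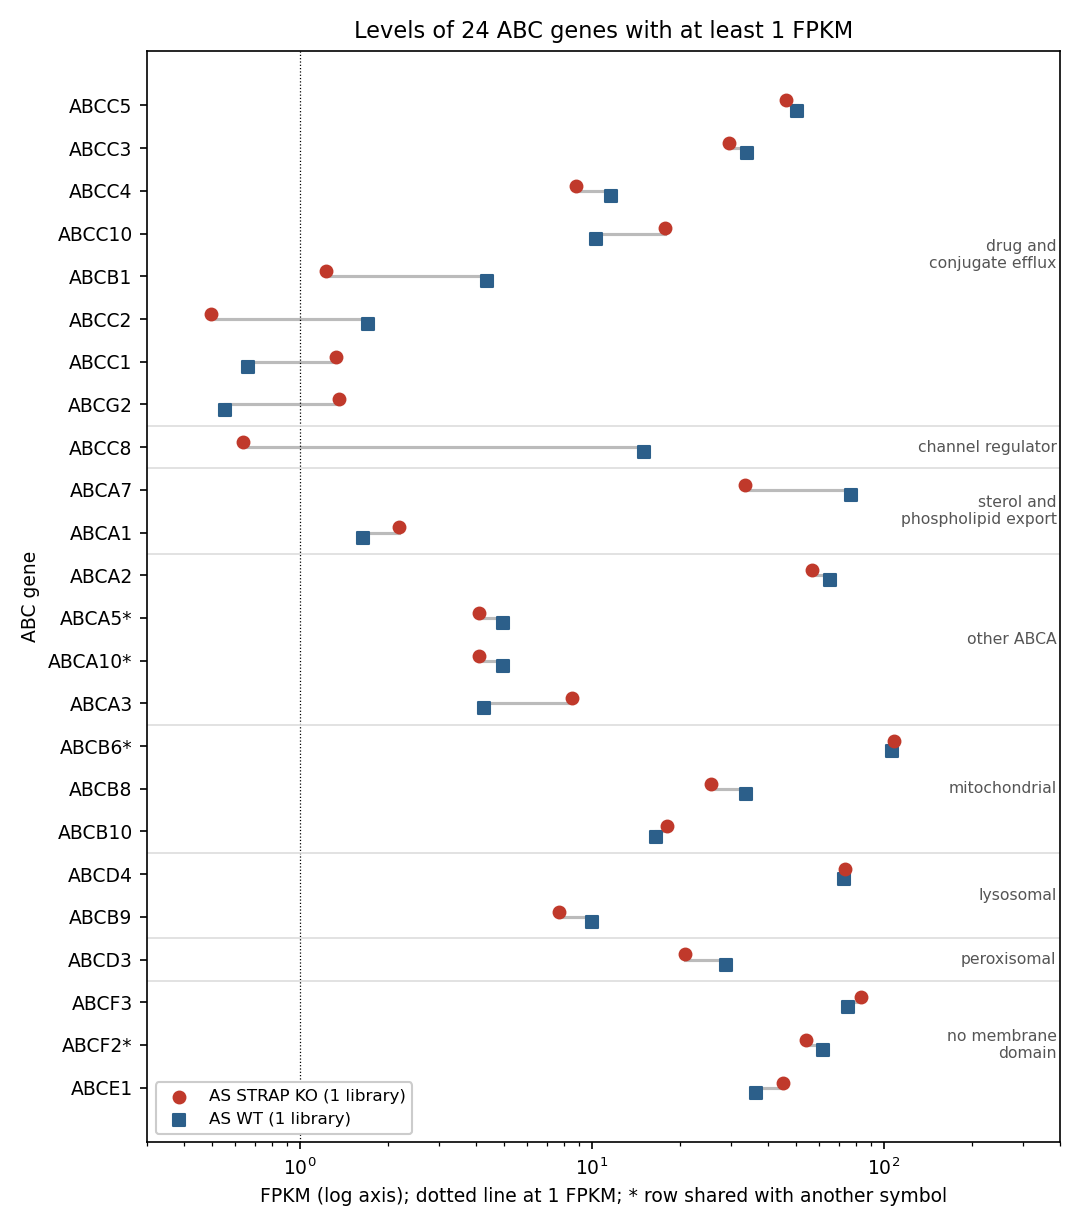
FPKM (log axis) of 24 of the 26 expressed ABC genes, grouped by role, with AS STRAP KO as red circles and AS WT as blue squares (1 library each) and a grey line joining them. ABCC8 shows the widest gap, at 0.641 FPKM in AS STRAP KO and 15.1 FPKM in AS WT, while the markers of most genes above 20 FPKM nearly touch.

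ABCB1 encodes P-glycoprotein, which exports vinca alkaloids, anthracyclines, taxanes and etoposide. It had 1.22 FPKM in AS STRAP KO and 4.37 FPKM in AS WT, about 164 and 574 reads. That is 3.57-fold lower in the knockout, with a log2 ratio of -1.84 (95% counting interval -2.09 to -1.58). Among the 26 expressed ABC genes it ranked 24 in AS STRAP KO and 21 in AS WT, so the best known drug pump was one of the less abundant ABC transcripts in both libraries. The gene (ENSG00000085563.15) lies on the minus strand at chr7:87503017-87713323 of GRCh38, and its main transcript has 28 exons. Its neighbour and closest relative ABCB4, which exports phosphatidylcholine into bile, lies 22581 bases away and had only 0.0409 FPKM in AS STRAP KO and 0.0809 FPKM in AS WT.

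ABCC2 (MRP2), which exports glucuronide and glutathione conjugates as well as cisplatin and methotrexate, was also lower. It had 0.494 FPKM in AS STRAP KO and 1.71 FPKM in AS WT, about 74.0 and 251 reads. The level was 3.46-fold lower, a log2 ratio of -1.79 (counting interval -2.18 to -1.41). With 1 FPKM added to each value the log2 ratio was -0.86, within 2-fold, and ABCC2 was left out where both libraries had to reach 1 FPKM. The gene lies at chr10:99782640-99852594 on the plus strand and has 32 exons.

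ABCB1, ABCC2 and the lipid transporter ABCA7 share a lower level in AS STRAP KO, and their promoters are shown to compare the sequences from which these transcripts start. The windows run from 250 bases before to 50 bases after the start site in RefSeq (GRCh38.p14), which listed windows for 35 of the 46 genes. ABCC8, the other gene that was lower, had no window there. For ABCB1 the window of the proximal promoter is shown (chr7:87600835-87601134, minus strand). That of ABCC2 is at chr10:99782390-99782689 on the plus strand and that of ABCA7 at chr19:1039857-1040156 on the plus strand. Capitals mark CCAAT boxes (CCAAT or ATTGG), GC boxes (GGGCGG or CCGCCC) and E-boxes (CACGTG), searched on both strands.
ABCB1: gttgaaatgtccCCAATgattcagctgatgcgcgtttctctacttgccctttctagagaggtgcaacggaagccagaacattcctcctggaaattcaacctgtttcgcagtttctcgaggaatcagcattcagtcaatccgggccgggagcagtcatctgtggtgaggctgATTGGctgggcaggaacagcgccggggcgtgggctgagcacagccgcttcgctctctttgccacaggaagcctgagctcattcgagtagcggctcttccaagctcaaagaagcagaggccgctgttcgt
ABCC2: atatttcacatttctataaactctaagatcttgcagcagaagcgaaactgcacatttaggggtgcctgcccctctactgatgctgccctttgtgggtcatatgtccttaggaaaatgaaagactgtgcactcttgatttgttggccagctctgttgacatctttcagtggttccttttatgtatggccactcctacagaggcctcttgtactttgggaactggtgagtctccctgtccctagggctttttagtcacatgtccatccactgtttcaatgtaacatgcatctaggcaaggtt
ABCA7: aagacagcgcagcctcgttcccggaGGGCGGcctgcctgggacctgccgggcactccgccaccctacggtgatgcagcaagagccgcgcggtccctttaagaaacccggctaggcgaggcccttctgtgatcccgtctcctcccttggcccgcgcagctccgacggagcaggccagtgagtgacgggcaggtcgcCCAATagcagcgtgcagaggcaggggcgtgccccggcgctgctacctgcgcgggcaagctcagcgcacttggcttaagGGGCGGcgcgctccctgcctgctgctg
The 3 windows have little of this in common. The ABCB1 window holds 2 CCAAT boxes, no GC box and 55.3% G and C. The ABCC2 window holds none of these motifs and has 45.0% G and C. The ABCA7 window holds 1 CCAAT box and 2 GC boxes at 70% G and C. Among all 35116 windows of this length, 34.6% hold a CCAAT box, 45.0% a GC box and 7.26% an E-box, and the letters are a description of the windows and not a measure of binding. The second ABCB1 window in RefSeq, upstream at chr7:87713246-87713545, holds none of the motifs and has 37.7% G and C.

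ABCG2 (BCRP), the pump for mitoxantrone and topotecan, had the opposite direction. It had 1.36 FPKM in AS STRAP KO and 0.554 FPKM in AS WT, about 146 and 58.3 reads. That is 2.46-fold higher in the knockout, with a log2 ratio of 1.30 (counting interval 0.86 to 1.77). The lower end of this interval is below 2-fold, so the counts alone do not place ABCG2 past that limit. With 1 FPKM added to each value the log2 ratio was 0.60, and ABCG2 was left out where both libraries had to reach 1 FPKM. The gene lies on the minus strand at chr4:88090150-88231628 with 16 exons.

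ABCC1 (MRP1), which exports glutathione conjugates and anthracyclines and is a known marker of poor outcome in neuroblastoma, lay just outside the limit. Its row had 1.33 FPKM in AS STRAP KO and 0.664 FPKM in AS WT, 1.998-fold apart. Scaled to TPM or by the upper quartile it passed 2-fold. The symbol has a second row with 0.949 FPKM in AS STRAP KO and 0.996 FPKM in AS WT, and with both rows summed the log2 ratio is 0.46 in place of 1.00. The level of ABCC1 is therefore uncertain. Whether reads of the gene were divided between these rows was not tested.

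The pumps with the highest levels were other members of the ABCC family. ABCC5 (MRP5), an exporter of cyclic nucleotides and nucleoside analogs, had 46.0 FPKM in AS STRAP KO and 50.3 FPKM in AS WT. ABCC3 (MRP3), an exporter of glucuronides and bile salts, had 29.5 FPKM in AS STRAP KO and 34.0 FPKM in AS WT. Both ratios were within 1.5-fold. ABCC4 (MRP4), an exporter of cyclic AMP, prostaglandins and nucleoside analogs, had 8.80 FPKM in AS STRAP KO and 11.6 FPKM in AS WT. ABCC10 (MRP7), which exports taxanes and vinca alkaloids, had 17.7 FPKM in AS STRAP KO and 10.4 FPKM in AS WT. The ABCC10 values differed by 1.71-fold, the widest gap among the 4 most abundant pumps (counting interval of the log2 ratio 0.68 to 0.88).

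Of the 12 genes in the drug and conjugate efflux group, 8 were expressed, 2 were lower, 1 was higher, and the median log2 ratio was -0.17. Among all expressed rows 10.6% were lower and 8.31% higher. The summed level of the group was 107 FPKM in AS STRAP KO and 114 FPKM in AS WT, a log2 ratio of -0.09. ABCC5 held 43.1% of this sum in AS STRAP KO and 44.3% in AS WT, and ABCC3 held 27.6% and 29.9%. ABCB1 held 1.15% of the sum in AS STRAP KO and 3.85% in AS WT. ABCC10 made up 16.6% of the sum in AS STRAP KO and 9.12% in AS WT. The pumps that were lower or higher thus contributed little to the total transcript level of the group, and its 2 leading genes were the same in both libraries.

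The other 4 genes of the group were not expressed. ABCC11 (MRP8), known for its part in earwax and sweat secretion, had 0.319 FPKM in AS STRAP KO and 0.0236 FPKM in AS WT, about 48.5 and 3.53 reads. The log2 ratio was 3.76 with a counting interval of 2.11 to 5.49. ABCC6 had 0.0442 FPKM in AS STRAP KO and 0.0225 FPKM in AS WT, ABCC12 was listed at 0 in the knockout, with 0.0206 FPKM in AS WT, and ABCB5 was listed at 0 in both.

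ABCC8 had the lowest ratio of the 26 expressed ABC genes. It encodes the sulfonylurea receptor SUR1, which together with the pore protein Kir6.2, the product of KCNJ11, forms the ATP-sensitive potassium channel of pancreatic beta cells and neurons. ABCC8 had 0.641 FPKM in AS STRAP KO and 15.1 FPKM in AS WT, about 80.8 and 1875 reads. The level was 23.6-fold lower, a log2 ratio of -4.56 (counting interval -4.90 to -4.24). Among the expressed ABC genes it ranked 25 in AS STRAP KO and 13 in AS WT.

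KCNJ11 was lower as well. It had 0.982 FPKM in AS STRAP KO and 11.4 FPKM in AS WT, about 84.3 and 964 reads, an 11.6-fold lower level (log2 ratio -3.54, counting interval -3.88 to -3.22). KCNJ11 reached 1 FPKM in AS WT alone, and with 1 FPKM added to each value its log2 ratio was -2.65. ABCC8 (ENSG00000006071.16, 39 exons) lies at chr11:17392498-17476894 and KCNJ11 (1 exon) at chr11:17365172-17389331, both on the minus strand with 3166 bases between them. Both genes of the channel were thus lower in the same library. The other pair of such subunits was under 1 FPKM in both libraries. ABCC9 (SUR2) was listed at 0 in the knockout, with 0.0228 FPKM in AS WT, and its pore partner KCNJ8 (Kir6.1) had 0.0192 FPKM in AS STRAP KO and 0.124 FPKM in AS WT.

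**Figure D2:**
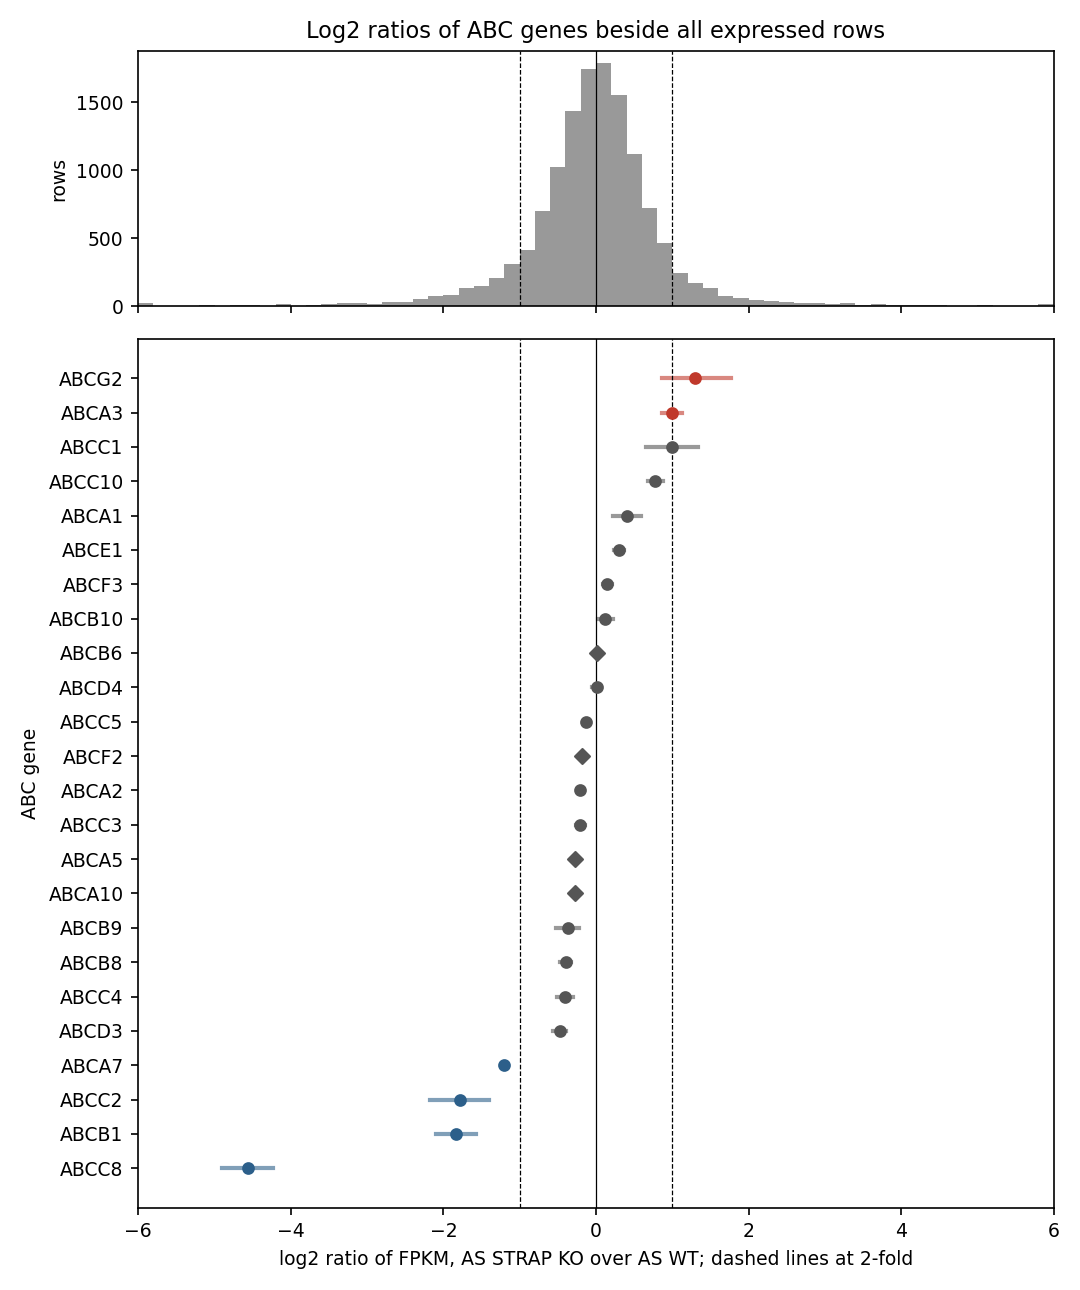
Upper panel: number of rows by log2 ratio of FPKM (AS STRAP KO over AS WT) for the expressed rows, without the 279 listed at 0 in 1 library and with the 40 beyond 6 on either side drawn at the edge. Lower panel: the log2 ratio of 24 expressed ABC genes with its 95% counting interval (diamonds: shared rows, with no interval), blue where at least 2-fold lower and red where at least 2-fold higher, with ABCC8 at -4.56 far from the other genes and 18 genes between the dashed lines.

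Among exporters of sterols and phospholipids, ABCA7 was lower. ABCA7 moves phospholipids across the plasma membrane and is known as a risk gene for Alzheimer's disease. It had 33.4 FPKM in AS STRAP KO and 77.1 FPKM in AS WT, a 2.31-fold lower level (log2 ratio -1.21, counting interval -1.25 to -1.16). It was the second most abundant ABC gene in AS WT and ranked 8 in AS STRAP KO. The gene lies at chr19:1039997-1065572 on the plus strand with 47 exons. ARHGAP45, a GTPase activating protein gene, begins 350 bases after its end on the same strand and had 66.3 FPKM in AS STRAP KO and 22.6 FPKM in AS WT. The 2 genes thus went in opposite directions, and their summed level was 99.8 FPKM in both libraries. FPKM is scaled to transcript length, so an equal sum of FPKM does not mean an equal sum of reads. Whether reads were assigned differently between ABCA7 and ARHGAP45 was not tested.

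ABCA1, which loads cholesterol onto apolipoprotein A-I, had 2.18 FPKM in AS STRAP KO and 1.64 FPKM in AS WT (log2 ratio 0.41). ABCG1 and ABCG4, which pass cholesterol to high density lipoprotein, stayed low, with 0.156 and 0.202 FPKM in AS STRAP KO against 0.124 and 0.130 FPKM in AS WT. The other 4 genes of this group had at most 0.0809 FPKM in either library. The group of 8 summed to 36.0 FPKM in AS STRAP KO and 79.1 FPKM in AS WT, nearly all of it from ABCA7.

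ABCA3, the lipid pump of lung surfactant granules, was just past the limit. It had 8.56 FPKM in AS STRAP KO and 4.28 FPKM in AS WT, 2.003-fold higher (log2 ratio 1.00, counting interval 0.87 to 1.13). The interval extends to both sides of 2-fold, and with trimmed-mean scaling or the median subtracted ABCA3 was no longer past it. The gene lies on the minus strand at chr16:2275881-2340746 with 33 exons. The related pseudogene ABCA17P, which starts 1.6 kb from the start of ABCA3, had 3.86 FPKM in AS STRAP KO and 0.669 FPKM in AS WT.

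The other ABCA genes with expression were near equal levels. ABCA2, a lipid transporter of endolysosomes that is abundant in brain, had 56.8 FPKM in AS STRAP KO and 65.4 FPKM in AS WT. ABCA5 and ABCA10 share 1 row, with 4.11 FPKM in AS STRAP KO and 4.95 FPKM in AS WT, so neither has a level of its own. ABCA4, the retinal lipid flippase of photoreceptors, was under 1 FPKM with 0.292 FPKM in AS STRAP KO and 0.607 FPKM in AS WT, about 55.6 and 114 reads (log2 ratio -1.05, counting interval -1.54 to -0.58).

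None of the expressed ABC genes of mitochondria (4), lysosomes (2) and peroxisomes (2) passed 2-fold. Among all expressed rows 10.6% were lower and 8.31% higher, and these groups are too small to be told apart from those shares. ABCB8, of the inner membrane, had 25.6 FPKM in AS STRAP KO and 33.8 FPKM in AS WT. ABCB10, which acts in heme synthesis, had 18.1 FPKM in AS STRAP KO and 16.6 FPKM in AS WT. Both were within 1.5-fold. The porphyrin transporter ABCB6 was in the most abundant row of the family, with 108 FPKM in AS STRAP KO and 107 FPKM in AS WT, but that row also holds the autophagy gene ATG9A.

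The lysosomal cobalamin exporter ABCD4 had 73.6 FPKM in AS STRAP KO and 73.2 FPKM in AS WT, a difference whose sign turns with the scaling (log2 ratio 0.01, and -0.01 with a trimmed mean). The lysosomal peptide transporter ABCB9 had 7.74 FPKM in AS STRAP KO and 10.0 FPKM in AS WT. Among the peroxisomal fatty acid importers, ABCD3 (PMP70) had 20.8 FPKM in AS STRAP KO and 28.9 FPKM in AS WT, and ABCD2 was listed at 0 in the knockout, with 0.0375 FPKM in AS WT.

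The ABC proteins without a membrane domain were abundant and close to equal. ABCE1, which splits ribosomes after translation ends, had 45.0 FPKM in AS STRAP KO and 36.5 FPKM in AS WT. ABCF3 had 83.7 FPKM in AS STRAP KO and 75.5 FPKM in AS WT. ABCF2, in a row shared with another symbol, had 54.2 FPKM in AS STRAP KO and 61.8 FPKM in AS WT. ABCF1, a translation initiation factor that most cells use, was listed at 0 in both libraries in all of its 7 rows, so a listed 0 is not read as a lack of transcript. The peptide transporters of antigen presentation, TAP1 and TAP2, which belong to the family under other symbols, had 8 rows each. Their highest rows were listed at 0 in both libraries for TAP1 and at 0.0163 FPKM in AS STRAP KO and 0 in AS WT for TAP2.

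Of the 20 genes under 1 FPKM in both libraries, ABCA6, ABCB5, ABCB11, ABCC13 and ABCF1 were listed at 0 in both, and 15 had a value above 0 in at least 1 library. Only ABCA4, ABCC11, ABCG1 and ABCG4 reached 0.1 FPKM. ABCA13 was listed at 0 in the knockout, with 0.0470 FPKM in AS WT, about 21.0 reads. ABCA8 had 0.0753 FPKM in AS STRAP KO, about 11.7 reads, and was listed at 0 in AS WT. These levels lie where few reads decide a value.

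Expressed genes within 1 Mb of each of the 6 genes past 2-fold were compared, because the knockout is 1 clone. Around ABCB1 none of 9 genes passed 2-fold, with log2 ratios between -0.63 and 0.89 and a median of 0.24. Around ABCG2, 1 of 10 genes was lower (SPP1, log2 ratio -3.54) and none higher, with a median of 0.32. The 6 windows were centred on genes already past 2-fold, so the place of each gene among its neighbours is partly set by that choice. A cause was not tested. Around ABCC2, 2 of 11 genes were lower and 1 higher (median 0.37). Around ABCC8, 2 of 6 genes were lower (KCNJ11 and SAAL1) and 1 was higher (PLEKHA7), with a median of -0.59. Around ABCA7, 6 of 47 genes were lower and 2 higher, and the median of -0.37 was on the same side as ABCA7. The 6 lower genes include RNU6-1223P, listed at 0 in AS STRAP KO with 13.9 FPKM in AS WT. Around ABCA3, 1 of 62 genes was lower and 8 higher (median 0.01). Over all expressed rows the shares were 10.6% lower and 8.31% higher.

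**Figure D3:**
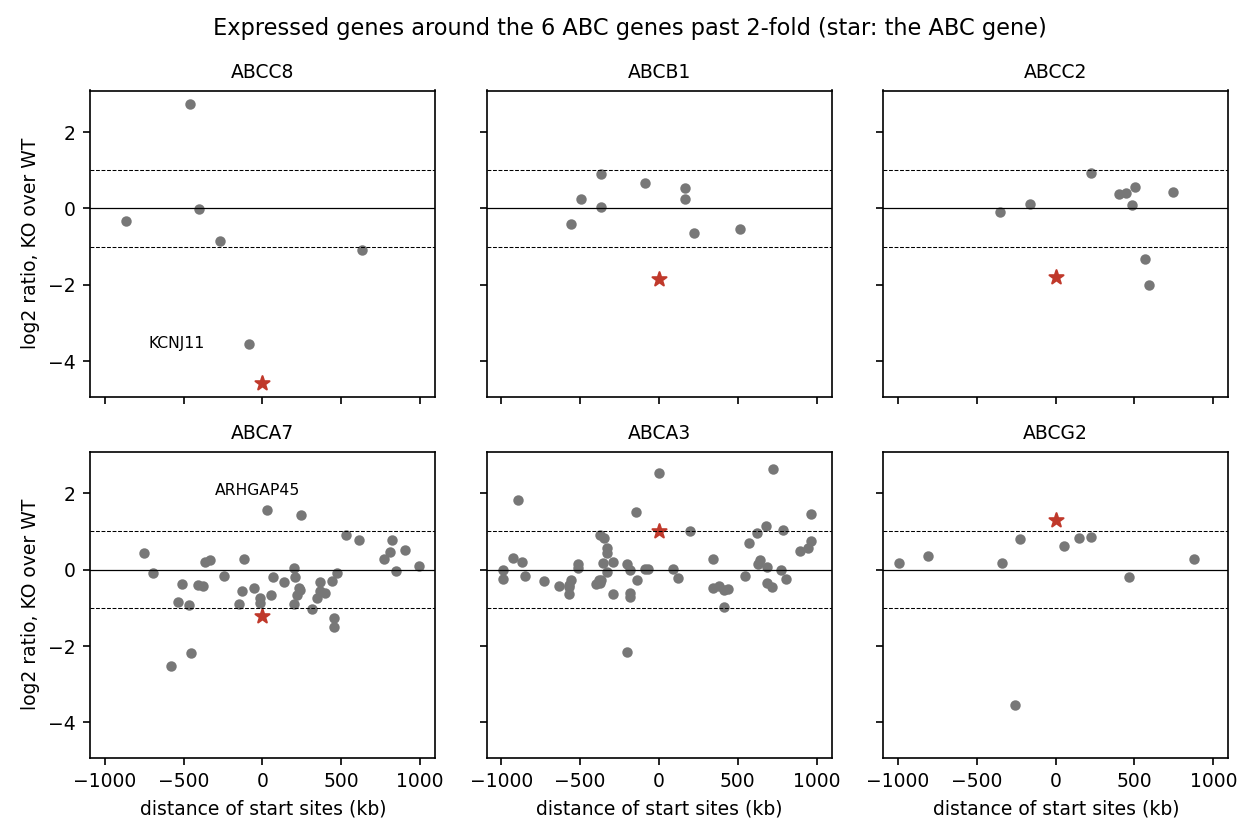
Log2 ratio of FPKM (AS STRAP KO over AS WT) of expressed genes against the distance of their start sites (kb) from that of the ABC gene. The 6 ABC genes past 2-fold are red stars, and dashed lines mark 2-fold. Genes in shared rows and genes listed at 0 in 1 library are left out. The 9 genes around ABCB1 all lie between -0.63 and 0.89, while KCNJ11 lies next to ABCC8 at -3.54.

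Genes that work with ABC transporters were taken as lists. Glutathione S-transferases make the conjugates that ABCC pumps export. Of 25 genes for glutathione synthesis and conjugation 19 were expressed, 5 were lower and 1 higher, with a median of -0.36. Among all expressed rows 10.6% were lower and 8.31% higher. The lower genes include GSTM1, GSTM2 and GSTM4, which share 1 row with 63.2 FPKM in AS STRAP KO and 144 FPKM in AS WT. That row is 1 measurement, but it enters the count and the median once for each gene. GSTA4, which conjugates lipid peroxidation products, had 7.27 FPKM in AS STRAP KO and 19.97 FPKM in AS WT. GSTT2 had 1.16 FPKM in AS STRAP KO and 2.51 FPKM in AS WT. The higher gene was SLC7A11, the cystine importer for glutathione synthesis, with 2.04 FPKM in AS STRAP KO and 0.779 FPKM in AS WT. SLC7A11 reached 1 FPKM in AS STRAP KO alone. With 1 FPKM added to each value its log2 ratio was 0.77, within 2-fold.

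Regulators known to control ABC genes were mostly within 2-fold. Of 24 regulators 19 were expressed, 1 was lower and 1 higher, with a median of -0.22. Among all expressed rows 10.6% were lower and 8.31% higher. The lower one was MYC, with 17.6 FPKM in AS STRAP KO and 41.1 FPKM in AS WT. The higher one was the fatty acid receptor PPARA, with 2.16 FPKM in AS STRAP KO and 0.883 FPKM in AS WT. PPARA reached 1 FPKM in AS STRAP KO alone. With 1 FPKM added to each value its log2 ratio was 0.75, within 2-fold. The oxysterol receptors LXR alpha and LXR beta switch on ABCA1 and ABCG1. Their genes had 21.3 FPKM (NR1H3) and 48.4 FPKM (NR1H2) in AS STRAP KO, against 39.6 and 64.9 FPKM in AS WT. Of 8 LXR targets outside the ABC family, all of them expressed, 2 were lower and none higher, with a median of -0.41. The ratio was below 1 for 6 of them and above 1 for 2. The stearoyl-CoA desaturase gene SCD had 44.3 FPKM in AS STRAP KO and 110 FPKM in AS WT, and the phosphodiesterase gene SMPDL3A had 3.66 FPKM in AS STRAP KO and 17.4 FPKM in AS WT. FASN, the most abundant of the targets, had 268 FPKM in AS STRAP KO and 501 FPKM in AS WT, within 2-fold. The 2 targets with a ratio above 1 were APOE and PLTP. The APOE row, shared with APOC1, had 108 FPKM in AS STRAP KO and 73.0 FPKM in AS WT. PLTP had 30.3 FPKM in AS STRAP KO and 26.7 FPKM in AS WT.

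Carriers that bring drugs and nucleosides into cells were set beside the pumps. Of 30 carriers 15 were expressed, 2 were lower and none higher, with a median of -0.19, beside 10.6% lower and 8.31% higher among all expressed rows. SLCO3A1, an organic anion carrier, had 15.3 FPKM in AS STRAP KO and 36.3 FPKM in AS WT. SLC29A4, a monoamine and nucleoside carrier, had 2.73 FPKM in AS STRAP KO and 7.53 FPKM in AS WT. None of the 5 expressed genes for other drug export and vaults passed 2-fold (median -0.05). The 3 most abundant of them, MVP (450 and 467 FPKM), ATP7A (304 and 240 FPKM) and TMEM205 (76.2 and 131 FPKM in AS STRAP KO and AS WT), each share a row with other genes. The peroxisomal import and beta-oxidation genes (10 expressed of 11, median 0.08) and the heme and iron-sulfur genes (16 expressed, median 0.04) held none past 2-fold. The most abundant of these were HSD17B4 (300.4 and 309 FPKM), SCP2 (158 and 112 FPKM) and PEX19 (106 and 91.9 FPKM) for peroxisomes and NFS1 (322 and 336 FPKM), CPOX (154 and 153 FPKM) and UROD (136 and 138 FPKM) for heme and iron-sulfur clusters, in AS STRAP KO and AS WT. HSD17B4, PEX19, NFS1 and CPOX are in rows shared with other genes.

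**Figure D4:**
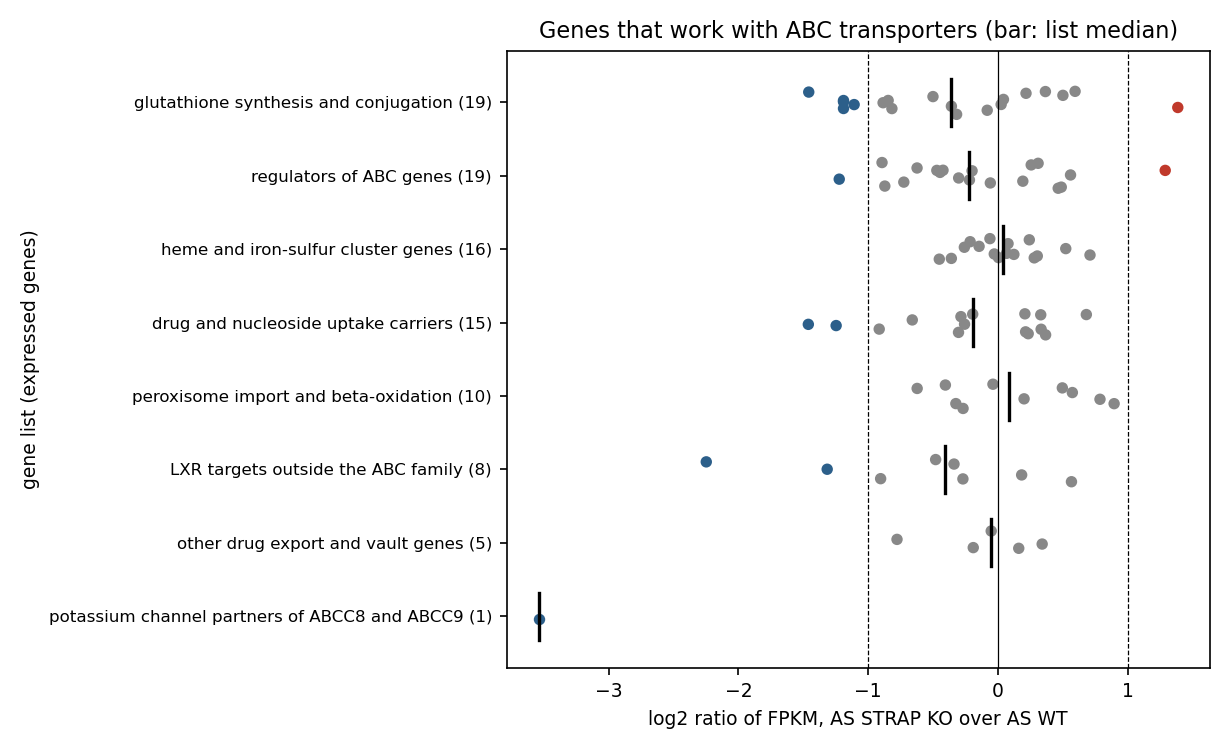
Log2 ratio of FPKM (AS STRAP KO over AS WT) of each expressed gene in the lists of genes that work with ABC transporters, with the number of expressed genes after each list's name, bars at the medians and dashed lines at 2-fold (blue lower, red higher). The medians of the lists with at least 5 expressed genes lie between -0.41 and 0.08, and KCNJ11 stands alone at -3.54.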

How the data were processed

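The authors sequenced directional poly A libraries of AS STRAP KO and AS WT as single ends of 75 bp, and the labels give 1 sample per condition. Per the methods, STAR and Cufflinks 2.2.1 were used with GRCh38 and GENCODE 32. The submitters' processing notes name bcl2fastq 2.18.0.12, STAR 2.7.6 and Cuffdiff. FPKM values were deposited, normalized by the authors for transcript length and mapped reads, with 1 column per condition. The methods state biologic replicates for the experiments in general, but the sources used here do not state whether any were pooled into a column, which is called a library here. The authors' fold changes and p-values were not used.

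FPKM in AS STRAP KO was divided by FPKM in AS WT and the quotient put on the log2 scale, with no pseudocount, for rows that reached 1 FPKM in either library. Depth was estimated from low values of 2232 genes with 1 transcript (326 values in AS STRAP KO and 371 in AS WT), of which 92.6% and 94.6% lay within 0.1 of a whole read. Reads per gene were estimated at the length of the main transcript less a 200-base fragment, with Clopper-Pearson intervals. Coordinates come from GENCODE 44 on GRCh38. The depth estimate and the 2-fold calls were tested on simulated data. The genes named were all expressed ABC genes, ABCB1, ABC genes of at least 0.1 FPKM with a 2-fold ratio, STRAP, cell type markers, and from each companion list the genes past 2-fold or otherwise the 3 most abundant. The results of some genes under this rule are not reported here. Outside this rule, other ABC genes under 1 FPKM and neighbouring genes were named after their values were seen. The same holds for KCNJ8, NR1H2, NR1H3, FASN, APOE and PLTP. The members and lists were chosen with earlier results of these data known. Alternatives were other filters, pseudocounts, scalings and ways to treat repeated and shared rows. Tools were matplotlib 3.10.9, SciPy 1.17.1, pandas 2.3.3, numpy 2.4.6 and Python 3.11.15.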

Additional observations from a re-analysis of the deposited data

How the results depend on the processing

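The counts of ABC genes past 2-fold depend on how low values are treated. With at least 1 FPKM required in both libraries, 2 of 22 genes were lower and 1 was higher in AS STRAP KO, beside 5.74% and 4.87% of 11846 rows. With 5 FPKM required in either library, 2 of 19 genes were lower and 1 was higher, beside 6.51% and 5.72% of 9857 rows. With no filter other than a value above 0, 12 of 41 genes were lower and 4 higher, beside 24.5% and 16.8% of 24428 rows. With 1 FPKM added to each value, 3 of 26 genes were lower and 0 higher, as ABCC2, ABCG2 and ABCA3 were then within 2-fold, beside 6.40% and 5.32% of 13527 rows. The number of higher genes was 1 with 0.1 FPKM added, with trimmed-mean scaling or with the median subtracted, where ABCA3 fell under the limit. Over all rows, the counts of lower and higher calls were 680 and 577 with 1 FPKM in both libraries, 4086 and 2779 of 20346 from 0.1 FPKM, 642 and 564 from 5 FPKM, 5990 and 4110 with no filter, and 866 and 719 with 1 FPKM added. Rescaling to TPM moved every log2 ratio by 0.107 and the share of lower among all calls to 48.5%, against 56.1%. The median of the ABC genes stayed between -0.21 and -0.09 in all the alternatives. ABCB1 ranged from -1.85 to -1.27, ABCC8 from -4.58 to -3.30, ABCA7 from -1.22 to -1.10, ABCC2 from -1.80 to -0.86, ABCG2 from 0.60 to 1.40, ABCA3 from 0.86 to 1.11 and ABCC1 from 0.46 to 1.11.

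No library was left out in turn, as each condition has 1. Depth limits most the genes under 1 FPKM, where values rest on few reads. No paired analysis was possible because each condition has 1 library and the labels give no replicate numbers.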
